A study of Rattus norvegicus with 61 samples.

Results

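Transthyretin and 9 transporters, channels, receptors and junction proteins of the choroid plexus were followed in bulk RNA sequencing of striatal and cerebellar tissue punches from male adolescent Sprague-Dawley rats. The 10 genes were Ttr (NCBI Gene ID 24856), Slc4a5 (297386), Clic6 (304081), Kcne2 (171138), Slc16a8 (65200), Cldn2 (300920), Folr1 (171049), Kl (83504), Mfrp (315597) and Tmem72 (362424). They are 10 of the 14231 genes in the striatal count table and 10 of the 14129 genes in the cerebellar one. The genes were chosen by their striatal values, namely the fitted differences between loaded and sham implants, which were known when the list was made. In these contrasts their values are given as a description, with no test. The cerebellar libraries were open to tests. The difference between the regions was tested too, but it reuses these striatal values, so its p-values are not free of the choice.

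Each rat carried a polymer implant under the skin of the back for 28 days from postnatal day 28. The implant held 0% (sham), 1% (low), 5% (medium) or 10% (high) of 4-OH-PCB52, the hydroxylated form of a polychlorinated biphenyl (PCB), and the series compares gene expression across these loadings. Striatal libraries numbered 8 sham, 6 low, 8 medium and 8 high, and cerebellar libraries 7 sham, 8 low, 8 medium and 8 high. Every library is punched tissue of 1 animal, called a punch here, and is named here by its group and animal number. Within a region the 3 loadings are set against the same sham punches, so their comparisons are not independent. A set of libraries stood apart in ribosomal or cell-type transcripts (8 striatal and 10 cerebellar). Some cerebellar differences from sham, among them that of Ttr for high, are given with and without these 10. The leading striatal differences are given with and without animal 17, but not without all 8. Striatal libraries held 5850199 to 10944066 reads and cerebellar ones 5420458 to 10994625. Levels are CPM, read counts scaled to a common library total, and log2 fold changes are given with their standard error (SE).

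The choroid plexus is a fringe of secretory epithelium that hangs into the brain ventricles and makes cerebrospinal fluid. Its epithelial cells move bicarbonate and chloride from blood to fluid, and seal the path between cells with leaky claudins. They are also the main source of transthyretin in the brain. Transthyretin carries thyroxine and, with its retinol-binding partner, vitamin A, and hydroxylated polychlorinated biphenyls are known as ligands of its thyroxine site. Kl is also known from some neurons. In such bulk tissue, fewer cells of a type and less RNA per cell cannot be told apart.

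Promoter sequence was at hand for 6 of the 10 genes in a RefSeq table of the GRCr8 build (Ttr, Slc4a5, Kl, Mfrp, Tmem72 and Slc16a8). Clic6, Kcne2, Folr1 and Cldn2 had no entry. The windows run from 250 bases before the start of the gene to 50 bases after it, 5′ to 3′. Those of Ttr, the most counted of the genes, and of Mfrp, the gene closest to it in the striatum by Spearman correlation (Clic6 by Pearson), are shown because both were high in the same striatal punches. The Ttr window lies on the + strand at chr18:12218508-12218807, and the Mfrp window on the + strand at chr8:53342284-53342583. Capitals mark a match to the motif TAATCC on either strand, the core recognised by Otx-type homeodomain factors.
Ttr: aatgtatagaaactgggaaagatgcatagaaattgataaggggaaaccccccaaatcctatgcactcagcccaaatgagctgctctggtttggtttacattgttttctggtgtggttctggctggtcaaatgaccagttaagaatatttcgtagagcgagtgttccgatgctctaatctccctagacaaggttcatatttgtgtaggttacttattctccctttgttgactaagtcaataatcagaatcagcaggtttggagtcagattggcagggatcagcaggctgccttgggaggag
Mfrp: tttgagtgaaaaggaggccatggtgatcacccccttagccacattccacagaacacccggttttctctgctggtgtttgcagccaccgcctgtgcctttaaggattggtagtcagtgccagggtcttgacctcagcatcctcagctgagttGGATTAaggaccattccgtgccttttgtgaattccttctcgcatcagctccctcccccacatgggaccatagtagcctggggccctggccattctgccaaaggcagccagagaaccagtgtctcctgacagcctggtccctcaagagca
The Mfrp match is the reverse complement, GGATTA, and begins 99 bases before the start. It was the only TAATCC match among the 6 windows, and 7.17% of 33469 promoters of this length hold one. The forkhead core TGTTTA, searched on both strands, was in none of the 6 windows and in 13.7% of all promoters. No match of 1 motif overlapped a match of the other, and no match says only that these letters are absent from the window. By position in the same annotation, Kcne2 and Clic6 lie near each other on chromosome 11, with 5 protein-coding genes between them.

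The striatal members were low in most punches and very high in 1. Ttr reached 11739 CPM in sham 17, where 122711 reads made it the second most counted gene of the library. It took 1.28% of that library's reads (Wilson 95% interval 1.28 to 1.29%, which covers counting error only). The second highest punch, sham 48, held 980 CPM, and low 51 came next with 92.5 CPM. The median of the 30 striatal libraries was 21.1 CPM, so that sham 17 stood 557 times above it and 12.0 times above sham 48. Sham 17 alone carried 88.0% of the summed striatal CPM of Ttr.

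By group, striatal Ttr was 1.93 CPM in the lowest, 21.7 CPM in the median and 11739 CPM in the highest of the 8 sham libraries. In the 6 low libraries it was 16.3, 28.5 and 92.5 CPM. In the 8 medium libraries it was 1.42, 12.0 and 33.4 CPM, and in the 8 high libraries 4.74, 23.1 and 33.4 CPM. The group medians stood within 12.0 to 28.5 CPM, and every loaded group overlapped the sham libraries. The animal with the high striatal punch did not have a high cerebellar one, where sham 17 held 19 Ttr reads, or 2.79 CPM.

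**Figure D1:**
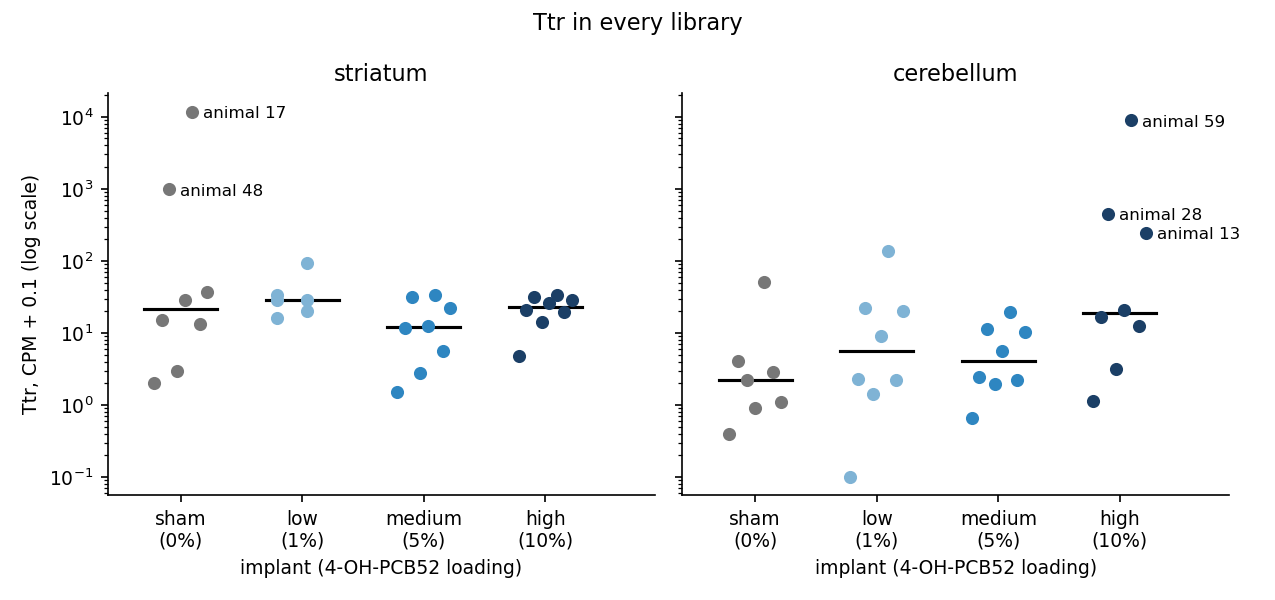
Ttr in every library, by implant loading, in striatum and cerebellum. Each point is 1 library, the y axis is CPM + 0.1 on a log scale, and bars are group medians. Striatal sham 17 (11739 CPM) and sham 48 (980 CPM) and cerebellar high 59 (8933 CPM), high 28 (453 CPM) and high 13 (246 CPM) stand above the other libraries.

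All 10 genes had their highest striatal value in sham 17. Among the ion carriers, Slc4a5, a sodium bicarbonate cotransporter, reached 196 CPM there, against a median of 0.897 CPM over the 30 libraries. Clic6, of the intracellular chloride channel family, reached 234 CPM against a median of 2.15 CPM. Kcne2, a small subunit that modifies potassium channels, reached 85.9 CPM against a median of 2.97 CPM. These 3 genes had from 85.9 to 234 CPM in 1 punch and a few CPM or less in the median punch. Slc16a8, a lactate transporter, reached 29.3 CPM against a median of 1.32 CPM. Cldn2, the claudin that forms cation-selective pores in leaky epithelia, reached 164 CPM against a median of 0.166 CPM, with no read in 8 of the 30 libraries. A count of 0 in these 8 libraries allows up to 0.326 to 0.507 CPM.

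Among the receptors, Folr1, the folate receptor that moves folate into the fluid, reached 128 CPM in sham 17 against a median of 2.65 CPM. Kl, klotho, the co-receptor for the hormone FGF23, reached 229 CPM against a median of 1.19 CPM. Mfrp, a membrane protein related to frizzled receptors, reached 296 CPM against a median of 0.992 CPM. Tmem72, a transmembrane protein, reached 78.1 CPM against a median of 0.877 CPM. Sham 48 was the second highest punch for 9 of the 10 genes, with 5.94 CPM of Kl, 25.0 CPM of Mfrp and 12.2 CPM of Cldn2. It was the highest library for 1.99% of the 12267 striatal genes that passed the filter on low counts, and how often it came second over all genes was not counted. For Slc16a8 the second highest was sham 34, with 2.83 CPM.

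A few other punches were raised in part of the set. Mfrp stood at 14.1 CPM in high 13 and at 9.71 CPM in low 20, and Slc4a5 at 3.94 and 4.35 CPM in the same 2 punches. Kl stood at 1.79 CPM in high 13 and 1.30 CPM in low 20. Low 51 came after sham 17 and sham 48 for Ttr, Kl, Clic6 and Cldn2, with 4.19 CPM of Kl and 8.38 CPM of Clic6. Read counts in these libraries were small, at 118 and 67 reads of Mfrp and 25 reads of Kl.

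**Figure D2:**
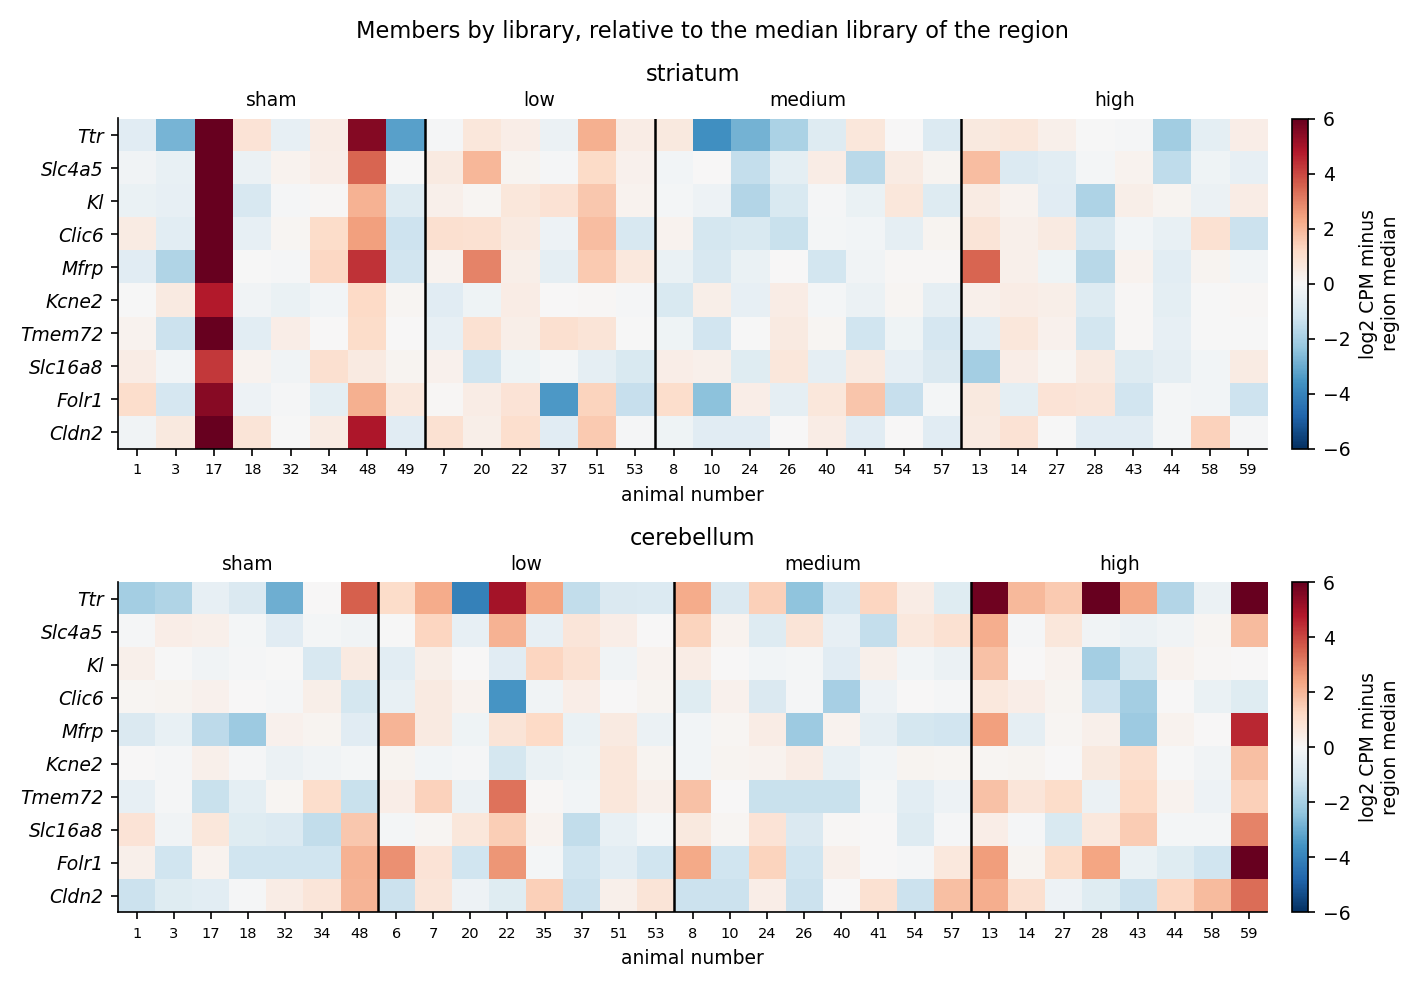
The 10 genes in every library, as log2 CPM (prior count of 2) minus the median library of the region. Columns are animals within sham, low, medium and high groups, rows are genes, and colours saturate at 6 log2 units. In the striatum the columns of sham 17 and sham 48 are raised in all or nearly all rows. In the cerebellum high 13 and high 59 are raised in most rows, and high 28 in Ttr and Folr1.

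So uneven a spread was rare in the striatum. Of 12267 genes that passed the filter on low counts, 11 (0.0897%) had over 50% of their summed CPM in 1 library, and for 10 of these that library was sham 17. They were 7 of the 9 plexus genes that passed the filter, together with Oxt (oxytocin, 250 CPM), Spp1 (osteopontin, 34.2 CPM) and Igfbp2 (an insulin-like growth factor binding protein, 616 CPM). Kcne2 had 49.2% and Slc16a8 43.2% in sham 17. Cldn2, which did not pass the filter, had 89.6%. The 10 genes were chosen by striatal differences from a sham group that holds sham 17. Their place among these genes was thus largely set by that choice and is no independent evidence.

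Other genes known from choroid plexus were also highest in sham 17. This held for 8 of 12 ion and water carriers, 8 of 8 epithelial genes, 10 of 12 secreted proteins and carriers, and 7 of 8 receptors and transcription factors. Of these 4 lists, 8, 6, 9 and 5 genes passed the filter. Over the 12267 striatal genes that passed it, sham 17 was the highest library for 8.76%. Aqp1, the apical water channel, stood at 125 CPM in sham 17 against at most 9.41 CPM elsewhere, and Kcnj13, an inward rectifier potassium channel, at 103 CPM against at most 4.199 CPM. F5, coagulation factor V, stood at 146 CPM against at most 4.05 CPM, and Otx2, a homeodomain factor of plexus epithelium, at 160 CPM against at most 35.7 CPM. These lists were chosen with earlier results of the same libraries known, so their direction is not independent evidence.

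Markers of other cells moved in the same punch. Sham 17 was highest for 10 of 14 genes of ciliated ependymal cells and 13 of 15 fibroblast genes. It was highest for none of 21 genes of striatal projection neurons, whose mean log2 CPM was 4.66 there, the lowest of the 30 libraries, against a median of 8.61. Of 8 genes of liver, kidney, retina and pineal cells that also make some of these transcripts, none was highest in sham 17. In sham 48 the projection neuron mean was 8.16. In low 20 and high 13 it was 5.24 and 5.43, and genes of septum and thalamus had means of 6.38 and 6.38, against a median of 2.90. The septum and thalamus mean was also raised in sham 17, at 4.55, and in sham 48, at 5.69. Genes of cerebellar granule cells, some of which other neurons express, had means of 6.32 in sham 17 and 5.53 in sham 48, against a median of 3.98, and 5 of 11 were highest in sham 17. Their part in the values of the 10 genes was not tested.

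The fitted striatal differences followed these punches. No gene passed the test (edgeR, adjusted p under 0.05) for any loading against sham, a share of 0.0% of 12267 in each, with 3.84, 3.69 and 1.15% of genes at an unadjusted p under 0.05 for low, medium and high. DESeq2 and limma-voom called none either. All 9 plexus genes that passed the filter had a lower fitted value in each loaded group than in sham, with medians of -3.12 for low, -4.33 for medium and -3.78 for high, whereas 49.8, 54.8 and 56.7% of all genes lay above 0. These contrasts are those in view when the genes were listed, and nothing is read from the counts. For Ttr the log2 fold change was -5.46 ± 1.501 for low, -6.72 ± 1.40 for medium and -6.17 ± 1.37 for high (SE).

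Leaving out animal 17 moved the Ttr values to -2.08 for low, -3.34 for medium and -2.79 for high. The medians over the 7 plexus genes then tested were -0.42, -0.76 and -0.62. Without sham 17 and sham 48, an alternative chosen after the data were seen, Ttr stood at 1.16 for low, -0.11 for medium and 0.44 for high. Of the 6 plexus genes then tested, 4 were above 0 for low, 2 for medium and 4 for high. Limma-voom, which gives odd libraries less weight, put Ttr at 1.00, -0.97 and 0.24 with all libraries. By run of 15 animal numbers, the Ttr difference of medium minus sham was 0.19, -7.33, -0.03 and -1.51 in mean log2 CPM, with sham 17 in the second run and sham 48 in the last.

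Most genes of the other plexus lists had fitted values below 0 in the striatum with all libraries, apart from the secreted proteins at medium. Of 6 tested epithelial genes, 6 were below 0 in each loaded group, with medians of -0.73 for low, -0.97 for medium and -0.97 for high. Of 5 receptors and transcription factors, 5, 4 and 5 were below 0, and of 8 ion and water carriers 7, 8 and 7. Of 9 secreted proteins, 7, 4 and 8 were below 0, and of 13 ependymal genes 12 in each. Of 11 genes of thyroid hormone transport and response, 7, 9 and 9 were above 0, with medians of 0.16, 0.11 and 0.06. None of these list genes passed the test. The lists rested in part on sham 17. Without animal 17 the epithelial genes had medians of 0.048 for low, -0.054 for medium and -0.079 for high, with 2, 3 and 5 of 6 below 0. The receptors and transcription factors then had 3 of 5 below 0 at each loading, the ion and water carriers 3, 5 and 4 of 8, the secreted proteins 4, 2 and 2 of 9, and the ependymal genes 8, 8 and 10 of 13. Those of thyroid hormone had 7, 7 and 6 of 11 above 0. The shares of all genes above 0 in the fits without animal 17 are not given here, so these counts are a description only.

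**Figure D3:**
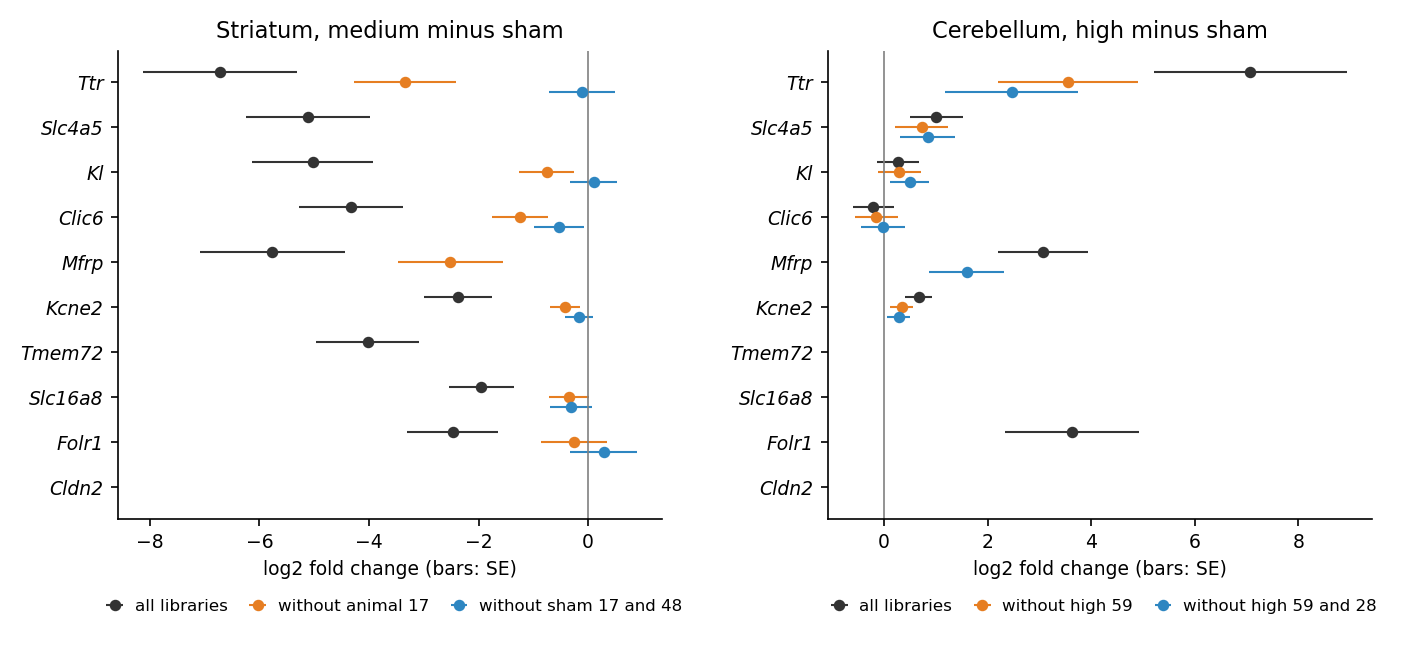
Log2 fold changes from edgeR (points) with SE (bars) for the striatal medium group minus sham (left) and the cerebellar high group minus sham (right). Colours give the fit of all libraries and the fits without the 1 or 2 libraries with the most Ttr. Genes without a point did not pass the filter on low counts in that fit. Striatal Ttr shifts to -0.11 without sham 17 and 48, and cerebellar Ttr to 2.46 without high 59 and 28.

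In the cerebellum the 3 punches with the most Ttr were in the high loading group, and of the 7 genes that passed the filter Ttr had the greatest fitted difference there. Ttr stood at 8933 CPM in high 59, where 77668 reads made it the third most counted gene and took 0.706% of the library's reads. It stood at 453 CPM in high 28, 246 CPM in high 13, 137 CPM in low 22 and 51.5 CPM in sham 48. High 59 alone held 89.4% of the summed cerebellar CPM of Ttr, whose median over 31 libraries was 4.05 CPM. In low 20 no Ttr read was counted, which allows up to 0.399 CPM.

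By group, cerebellar Ttr was 0.296 CPM in the lowest, 2.11 CPM in the median and 51.5 CPM in the highest of the 7 sham libraries. In the 8 low libraries it was 0, 5.57 and 137 CPM. In the 8 medium libraries it was 0.550, 3.97 and 19.7 CPM, and in the 8 high libraries 1.02, 18.6 and 8933 CPM. Medians were higher in all 3 loaded groups than in sham, and every loaded group overlapped the sham libraries.

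No cerebellar difference between a loading and sham passed the test over all genes. In edgeR, Ttr had a log2 fold change of 7.07 ± 1.86 for high against sham (SE, adjusted p = 0.417), 1.43 ± 1.45 for low (adjusted p = 1.00) and -0.41 ± 1.42 for medium (adjusted p = 0.999). The exact two-sided permutation test of mean log2 CPM gave 5.51 ± 4.18 in high and 1.46 ± 2.12 in sham libraries (SD, n = 8 and 7), a difference of 4.05 with p = 0.0305 and 0.0914 after Benjamini-Hochberg adjustment over the 3 loadings. For low the difference was 1.09 (exact permutation p = 0.417, adjusted 0.478), and for medium 0.70 (exact permutation p = 0.478, adjusted 0.478). The size of the difference for high rested on single punches. Without high 59 the edgeR value was 3.55 ± 1.35 (adjusted p = 0.812), and without high 59 and high 28 it was 2.46 ± 1.28. Without sham 48 it was 9.35 ± 2.09 (adjusted p = 0.115).

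The 4 runs of 15 animal numbers, which may stand for the 4 cohorts the labels mention, gave Ttr differences of the same sign for high. High libraries were above sham libraries by 5.80 in animals 1 to 15, by 4.81 in animals 16 to 30, by 1.75 in animals 31 to 45 and by 1.74 in animals 46 to 60 (differences in mean log2 CPM, 2 against 2 libraries, and 2 against 1 in the last run). For low and medium, 3 of the 4 runs had a higher mean than sham, and the last run, with sham 48 as its only sham library, had a lower one. With the run as a covariate the high difference was 6.24 in edgeR.

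The other cerebellar members differed in which library held their highest value. Folr1 was 0, 0.727 and 42.1 CPM in the lowest, median and highest high library, against 0, 0 and 2.35 CPM in sham, and 4 of 7 sham libraries held no read. Mfrp was 0, 1.08 and 27.1 CPM in high libraries, against 0, 0.495 and 1.18 CPM in sham. Kcne2 was 5.91, 7.55 and 24.5 CPM in high libraries, against 5.33, 6.49 and 8.53 CPM in sham. All 3 had their highest value in high 59 and overlapped the sham libraries. Slc16a8 and Cldn2, which did not pass the filter, were also highest in high 59, at 5.52 and 6.21 CPM. Of the 10 genes 6, with these 2 among them, were highest in that library, against 1.93% of the 11946 cerebellar genes that passed the filter.

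Kl, Clic6 and Slc4a5 were instead highest in high 13, at 8.65, 18.3 and 7.03 CPM. That library was the highest for 0.511% of the 11946 genes that passed the filter. Clic6 was 2.67, 10.5 and 18.3 CPM in the lowest, median and highest high library, against 5.57, 12.8 and 15.1 CPM in sham. Kl was 0.373, 2.48 and 8.65 CPM in high libraries, against 1.09, 2.34 and 3.59 CPM in sham. In high 59, the punch with the most Ttr, Kl stood at 2.42 CPM (21 reads) and Clic6 at 6.90 CPM (60 reads), against regional medians of 2.38 and 11.8 CPM. Tmem72 was highest in low 22, at 5.99 CPM, where Clic6 had its lowest value of 0.765 CPM.

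The fitted differences for high against sham were 3.63 ± 1.29 for Folr1, 3.08 ± 0.87 for Mfrp, 0.67 ± 0.26 for Kcne2, 1.01 ± 0.51 for Slc4a5, 0.27 ± 0.40 for Kl and -0.21 ± 0.40 for Clic6 (log2, SE, edgeR). None passed, with adjusted p between 0.417 and 0.868, and 0.0% of 11946 genes were called. At an unadjusted p under 0.05, 4 of the 7 genes that passed the filter were called, all higher, against 11.7% of all genes, of which 10.5% were higher. Mfrp and Folr1 passed the filter in part through high 59, so the count is no support for a group difference. Above 0 were 6 of the 7, against 47.3% of all genes, and the median was 1.01, against -0.03 over all genes. For low, 6 of the 7 were above 0 (43.6% of all genes) with a median of 0.85, and for medium 4 of the 7 (49.7% of all genes) with a median of 0.12. Mfrp and Folr1 did not pass the filter in the fit with only high 59 left out. Without high 59 and high 28 Mfrp passed it and stood at 1.59 ± 0.72 (adjusted p = 1.00), and Kcne2 stood at 0.28 ± 0.22.

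A linear trend with loading in percent gave Ttr 0.65 ± 0.13 log2 units per percent (SE, edgeR adjusted p = 0.0755). Folr1 had 0.31 ± 0.09 (adjusted p = 0.0755), Mfrp 0.21 ± 0.07 (adjusted p = 0.0780) and Kcne2 0.07 ± 0.02 (adjusted p = 0.0799). No gene passed (0.0% of 11946), and 20.6% had an unadjusted p under 0.05, 18.8% with a rise, as had 4 of the 7 plexus genes. Of 31 fits with 1 library left out, Mfrp passed the filter in 24 and Folr1 in 25, and neither passed without high 59. Their slopes and this count are thus descriptions and support no trend. DESeq2 called 831 genes, among them Ttr (0.35 per percent, adjusted p = 0.0330) and Kcne2 (0.07, adjusted p = 0.0449). In edgeR, leaving out any 1 of high 13, 14, 27, 44 or 58 or sham 48 gave from 887 to 1635 calls, Ttr among them each time, with an adjusted p of 0.0122 without sham 48. Without high 59 the Ttr slope was 0.27 ± 0.10 (adjusted p = 0.255), and without high 59 and high 28 it was 0.15 ± 0.10.

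Libraries of the high group also differed in other transcripts. Of 74 ribosomal protein genes, 73 had a higher fitted value in high than in sham cerebellum, with a median of 1.79. Their mean log2 CPM was 10.4 in high 59, 10.8 in high 28 and 11.8 in high 43, against a regional median of 7.21, while high 13, with 246 CPM of Ttr, stood at 7.17. Without the 10 cerebellar libraries set apart by ribosomal or granule cell genes, which include high 28, high 43, high 59 and sham 48, Ttr had a high against sham difference of 5.03 (adjusted p = 0.590). Granule cell genes had a mean of 7.41 in high 59, 8.63 in high 13 and 3.59 in low 22, against a regional median of 8.70. Their part in the Ttr values was not tested.

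With all libraries, most genes of 3 of the other plexus lists had fitted values below 0 for high against sham in the cerebellum. Without sham 48 this no longer held for the epithelial genes and secreted proteins, but still held for the ion and water carriers. For high against sham, 1 of 5 tested epithelial genes, 1 of 8 ion and water carriers, 2 of 9 secreted proteins and 3 of 6 receptors and transcription factors had a fitted value above 0, and none passed the test. Their medians were -0.58, -0.19, -0.64 and 0.23. Without sham 48 the epithelial genes had 3 of 5 above 0, the ion and water carriers 3 of 8, the secreted proteins 7 of 9 and the receptors and transcription factors 5 of 6, with medians of 0.30, -0.13, 0.38 and 0.80. The share of all genes above 0 in the fit without sham 48 is not given here, so its counts are a description only. With all libraries the smallest p-values within these lists in edgeR, none past the test, belonged to Krt8 (-0.84) and Perp (-0.58), Slc2a12 (-0.73) and Aqp1 (-1.53), Pcolce (-1.53) and Bmp6 (-0.91), and Lmx1a (1.35) and Otx2 (1.30). Of 8 ependymal genes 7 were above 0, with a median of 0.53, and of 15 fibroblast genes 1, with a median of -1.11, against 6 and 10 without sham 48, with medians of 0.85 and 0.07. Aqp1 stood at 12.997 CPM in high 59, against 68.6 CPM in sham 48, its highest library. Igfbp2 was also highest in sham 48, at 2870 CPM, and so were genes of fibroblasts, with a mean of 8.03 there against a median of 4.70. High 59 was highest for 2 of 8 epithelial genes, 2 of 12 ion and water carriers, 1 of 12 secreted proteins and 2 of 8 receptors and transcription factors, and sham 48 for 4, 4, 7 and 3 of them. Over the 11946 cerebellar genes that passed the filter the share was 1.93% for high 59. That for sham 48 is not given here, so its counts are a description only. Among the few led by high 59, and chosen after their values were seen, Sostdc1 (a secreted BMP antagonist), Otx2 and Calml4 stood there at 12.8, 120 and 15.9 CPM, against medians of 0.127, 12.995 and 0.552 CPM in the other libraries. Of 10 tested genes of thyroid hormone transport and response, 2 were above 0 in high against sham, with a median of -0.15, and none passed. Among them Crym, which binds thyroid hormone in the cytosol, had 0.84 ± 0.55 (edgeR adjusted p = 0.566).

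The ratio of the other genes to Ttr differed between punches rich in Ttr. Per 1000 Ttr reads, sham 17 held 123 reads of the other 9 genes together and sham 48 held 94.7, while cerebellar high 59 held 13.7, high 28 48.6, high 13 230 and low 22 184. Mfrp had 25.2 (24.3 to 26.2) reads per 1000 Ttr reads in striatal sham 17 and 25.6 (21.9 to 29.7) in sham 48, with exact 95% intervals that cover counting error only. In the cerebellum it had 26.3 (19.8 to 34.3) in high 13, 12.999 (7.08 to 21.9) in low 22, 2.74 (1.32 to 5.05) in high 28 and 3.04 (2.66 to 3.45) in high 59. The interval of high 13 overlapped those of both striatal punches, and those of high 28 and high 59 lay below them.

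Kl differed between the striatal punches too, with 19.5 (18.7 to 20.3) reads per 1000 Ttr reads in striatal sham 17 and 6.06 (4.34 to 8.23) in sham 48. It had 35.2 (27.6 to 44.3) in cerebellar high 13, 10.2 (5.08 to 18.3) in low 22, 0.823 (0.170 to 2.41) in high 28 and 0.270 (0.167 to 0.413) in high 59. Folr1 varied less, from 10.9 and 12.7 in striatal sham 17 and 48 to 26.0, 13.1, 6.31 and 4.71 in cerebellar low 22, high 13, high 28 and high 59. Cldn2 had 13.98 and 12.4 in striatal sham 17 and 48, and 0.928, 10.8, 0.274 and 0.695 in cerebellar low 22, high 13, high 28 and high 59. High 13 was thus the cerebellar punch nearest the striatal ones for Mfrp, Folr1 and Cldn2, but not for Kl, Clic6 or Kcne2. For Kl, low 22 lay between the striatal punches. High 13 held 74.6 reads of Clic6 and 30.5 of Kcne2, against at most 20.0 and 7.39 in the striatal punches. Slc4a5 and Tmem72 were highest beside Ttr in low 22, at 48.3 and 43.6 reads per 1000. Clic6, Kcne2, Kl and Slc4a5 were counted in every cerebellar punch, also in those with few Ttr reads. Their ratios to Ttr include that level. Kl stood at 1.40 CPM in low 22 and 2.42 CPM in high 59, against a cerebellar median of 2.38 CPM.

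**Figure D4:**
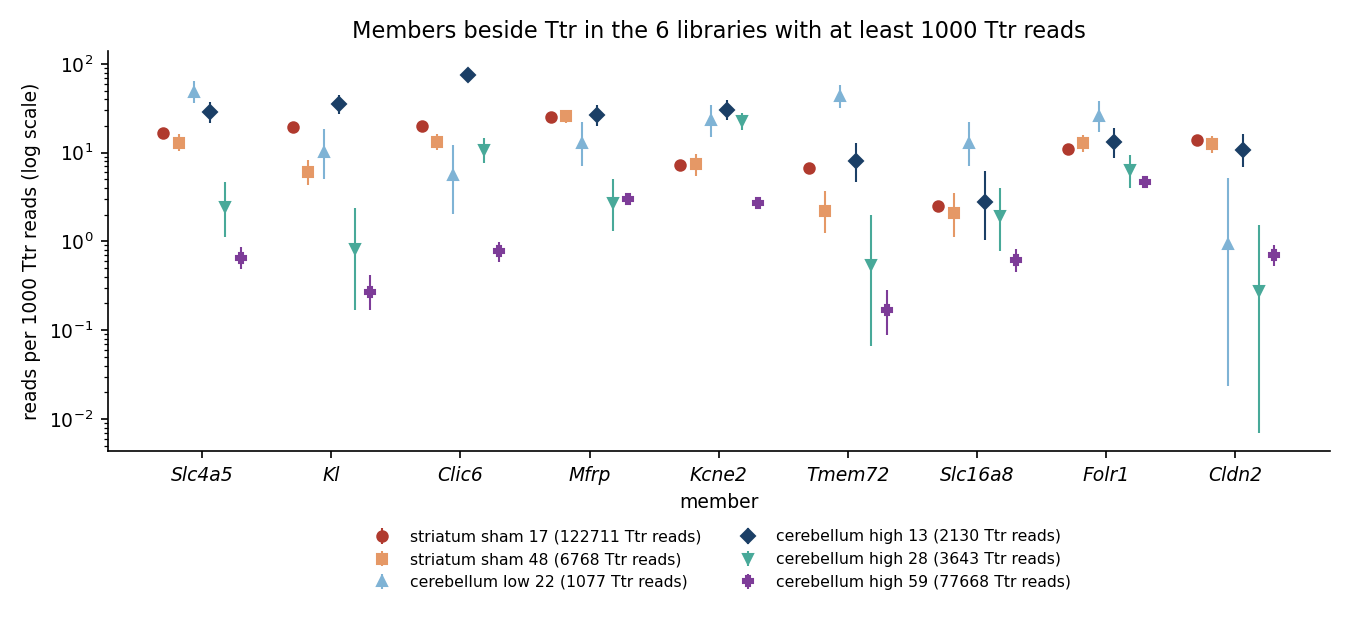
Reads of the other 9 genes per 1000 Ttr reads in the 6 libraries with at least 1000 Ttr reads, on a log scale, with exact 95% intervals that cover counting error only. Circles and squares are striatal sham 17 and 48, and the other symbols are cerebellar libraries. High 59 (plus signs) lies below striatal sham 17 for all 9 genes.

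Between regions, Clic6 and Kcne2 stood lower in striatum and Folr1 and Slc16a8 higher. In the fit of all 61 libraries, 6 of the 10 genes passed the test for striatum against cerebellum, 4 higher and 2 lower. Over all genes 71.6% passed, 30.8% higher and 40.8% lower, so the members' count is near the background. The striatal values by which the genes were chosen enter this contrast, so its p-values are not free of that choice. Clic6 had medians of 2.15 CPM in striatum and 11.8 CPM in cerebellum, and 28 of 30 striatal libraries were below the cerebellar median. Its log2 difference was -1.24 ± 0.35 (SE, edgeR adjusted p = 0.00167), and -2.002 ± 0.24 without animal 17. Kcne2 had medians of 2.97 CPM in striatum and 6.83 CPM in cerebellum, with 28 of 30 striatal libraries below the cerebellar median and a difference of -0.86 ± 0.24 (edgeR adjusted p = 0.00130). Both genes were thus present in every cerebellar punch, Clic6 at 0.765 CPM or more and Kcne2 at 3.19 CPM or more.

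Folr1 had medians of 2.65 CPM in striatum and 0.347 CPM in cerebellum, and a difference of 1.92 ± 0.53 (SE, edgeR adjusted p = 0.00115). Slc16a8 had medians of 1.32 CPM in striatum and 0.462 CPM in cerebellum, and a difference of 1.17 ± 0.34 (edgeR adjusted p = 0.00177). These 4 calls held with the animal as a replicate block and without animal 17. With sham libraries alone Folr1 and Slc16a8 still passed, while Clic6 and Kcne2 stood at 1.47 and 1.09, above 0, and did not pass.

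The other 6 genes had no stable regional difference. Ttr had medians of 21.1 CPM in striatum and 4.05 CPM in cerebellum, and only 4 of 30 striatal libraries were below the cerebellar median. Its difference was 0.83 ± 0.65 (edgeR adjusted p = 0.249), 1.74 ± 0.67 with the animal as a replicate block (edgeR adjusted p = 0.0213) and -0.05 ± 0.62 without animal 17. Kl had medians of 1.19 CPM in striatum and 2.38 CPM in cerebellum, and 26 of 30 striatal libraries were below the cerebellar median. Its difference was 0.10 ± 0.43 (edgeR adjusted p = 0.848), and -0.98 ± 0.23 without animal 17 and -0.85 ± 0.30 with the replicate block, both past the test (edgeR adjusted p = 0.000207 and 0.0140). Mfrp (1.47 ± 0.54) and Tmem72 (1.32 ± 0.45) passed with all libraries (edgeR adjusted p = 0.0135 and 0.00792) but not with the replicate block (edgeR adjusted p = 0.273 and 0.164), nor without animal 17 (0.215 and 0.248). Slc4a5 stood at 0.29 ± 0.43 and Cldn2 at -0.03 ± 0.21 (edgeR adjusted p = 0.556 and 0.913). No gene of the 10 was free of overlap between the regions, as 0.635% of all genes were with striatum higher and 0.832% with striatum lower.

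**Figure D5:**
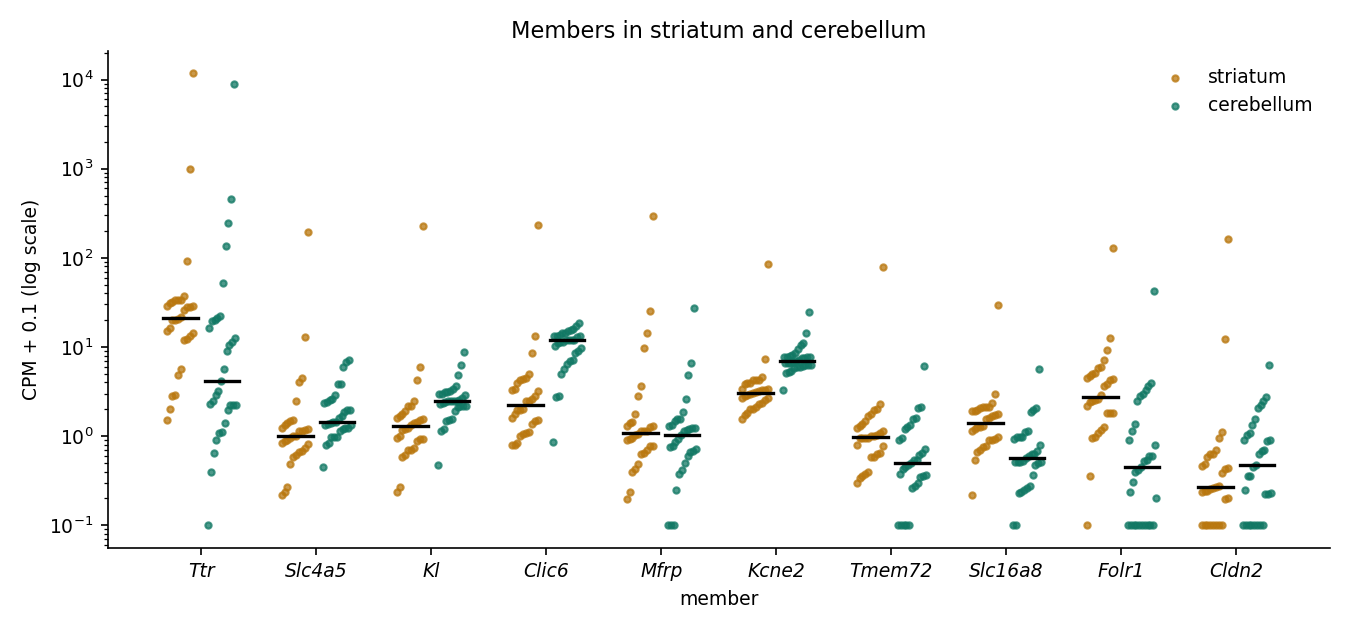
The 10 genes in the 30 striatal (left in each pair) and 31 cerebellar libraries (right), as CPM + 0.1 on a log scale. Points are libraries and bars medians. Clic6 and Kcne2 have higher medians in cerebellum, Ttr, Folr1 and Slc16a8 in striatum, and every gene has its highest striatal value in 1 library.

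The relation of Ttr between the 2 regions of an animal did not pass the test. Over 29 animals with both libraries, Pearson's r of log2 CPM was 0.16 (permutation p = 0.369) and Spearman's rho 0.33 (permutation p = 0.0858), the only relation tested. Without animals 17 and 48, farthest from the striatal median, r was 0.28 and rho 0.30 (permutation p = 0.153 and 0.125). Animal 59, first in cerebellar Ttr, had 28.2 CPM in striatum. As a description, rho for the other 9 genes ran from -0.18 for Tmem72 to 0.51 for Folr1.

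Across striatal libraries, which share tissue handling and differ in depth, the members varied together mainly through sham 17 and sham 48. Over the 45 pairs of members, the median Pearson correlation of log2 CPM was 0.81 with all 30 libraries, and 44 pairs were over 0.5. The genes were chosen by differences from a sham group that holds sham 17. Their striatal correlations, also those with Ttr, were thus largely set by that choice and are no independent evidence. The share of all gene pairs over 0.5 is not given here. Without sham 17 and 48 the median was 0.28 and 5 pairs were over 0.5, and in the 31 cerebellar libraries the median was 0.23 with 7 pairs over 0.5. Mfrp had the highest Spearman correlation with Ttr of all 12266 striatal genes ranked, at 0.70, while Kcne2 stood at 0.14. In the cerebellum Folr1 was the third of 11945 genes, at 0.73, and Clic6 stood at -0.33. Among genes outside the set, the 10 closest to striatal Ttr by Spearman correlation were Enoph1 (0.66), Stard5, Grb14, Sod2, Tppp3, Abtb1, Spp1, Slc27a2, Pip5k1b and Snx15 (0.63). In the cerebellum they were Ccdc190 (0.78), Pgf, Asgr2, Mthfd2, Ftl1, Mettl7a, Cyp27a1, Alox5ap, Cldn9 and Crnde (0.71). By Pearson correlation in the striatum, Msx1, Cdkn1c and Cab39l came first, at 0.82, 0.82 and 0.78, and only 1 of the 10 genes was shared with the Spearman list.

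Some of these counts could be shared with a neighbour, since the sources used here give neither the counting method nor its use of strand. Mfrp lies within 1000 bases of C1qtnf5, with which it is known to share a transcript in mouse and human. C1qtnf5 had 68.7 CPM in striatal sham 17, second of 30 libraries, against a median of 44.7 CPM, and 115 CPM in cerebellar high 59, against a median of 26.9 CPM. Folr1 lies within 1000 bases of Anapc15, which had 21.8 CPM in sham 17 against a median of 21.1 CPM, and 65.6 CPM in cerebellar high 59 against a median of 13.5 CPM. Both neighbours were thus raised in the cerebellar library where Mfrp and Folr1 were highest, and both were higher still in high 43, at 156 and 138 CPM. Their part in the Mfrp and Folr1 counts was not tested. Slc4a5 lies within 1000 bases of Mthfd2, which had 7.27 CPM in sham 17 against a median of 7.93 CPM and 14.5 CPM in high 59 against a median of 9.56 CPM, and it overlaps a long noncoding RNA. The counts of Mfrp, Folr1 and Slc4a5 are uncertain to that extent. The other 7 genes had no annotated neighbour within 1000 bases.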

How the data were processed

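The values analysed are whole-number read counts per gene, deposited by the authors as 1 table per region. Per the submitters' processing notes the tools were FastQC and HISAT2 with rn6; the sources used here give no counter, strand setting or annotation. RNA came from TRIzol lysates over RNeasy columns, and its enrichment is named as either poly(A) selection or depletion of rRNA, per the labels' protocols.

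Counts were scaled by TMM and filtered with filterByExpr (12267 striatal genes, 11946 cerebellar, 12616 of the 13889 shared). Of the 10 members, 9 passed in striatum (not Cldn2) and 7 in cerebellum (not Tmem72, Slc16a8 and Cldn2). edgeR 4.0.16 (R 4.3.3) ran robust quasi-likelihood tests, two-sided, with Benjamini-Hochberg adjustment over all genes and a threshold of 0.05; 1 fit held the 4 groups of a region, and the regional contrast used all 61 libraries. limma 3.58.1, DESeq2 1.42.0, scipy 1.17.1 and matplotlib 3.10.9 were also used. DESeq2 replaces counts it finds outlying. log2 CPM has a prior count of 2. The procedure was tested on simulated data.

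Groups come from the titles and treatment labels, and animal numbers from the titles. Same-numbered libraries of the 2 regions are taken as 1 animal, from the titles alone. Their deviations from group means correlated with a median r of 0.39 over 29 animals (-0.28 to 0.85), over 0.1 in 21. Values for libraries of different numbers are not given here, so these correlations do not test the pairing. The design text gives 6 animals a group, and the tables hold 6 to 8 libraries a group. That each library is a separate animal comes from its number.

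The members, the lists and the rules were chosen with earlier results of these data known. The 10 members are named throughout, with the 10 other genes most correlated with Ttr per region, genes with over 50% of striatal CPM in 1 library, and up to 4 list genes by smallest p, or 2 where none passed; 1 such gene is not reported here. List genes named for their level in 1 library, and the order of members within a list, were chosen after values were seen. Alternatives were RLE factors, DESeq2, limma-voom with quality weights, other filters, the run of animal numbers, and libraries left out.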

Additional observations from a re-analysis of the deposited data

Results flagged for a closer look

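Of 80 sets of libraries (10 genes in 8 groups), 10 had a highest or lowest library far from the others on the log2 scale. Chance gives about 1 in 20 sets where sets are independent. These sets share libraries, and the genes were chosen by their striatal values, so that rate is no measure for the count. Ttr, Slc4a5, Mfrp, Folr1 and Cldn2 were not flagged in striatal sham 17, though it stood 10.3 to 15.4 times above the next library, sham 48. Striatal sham 17 was flagged as far above the other sham libraries for the other 5 genes. It held 229 CPM of Kl, 234 CPM of Clic6, 85.9 CPM of Kcne2, 78.1 CPM of Tmem72 and 29.3 CPM of Slc16a8, against group medians of 0.967, 2.74, 3.10, 0.976 and 1.74 CPM. Striatal high 13 was far above its group for Mfrp, at 14.1 CPM against a median of 0.996 CPM, and striatal high 44 far below it for Ttr, at 4.74 CPM against a median of 23.1 CPM. In the cerebellum Clic6 was far below its group in low 22, at 0.765 CPM against a median of 12.4 CPM, and in sham 48, at 5.57 CPM against a median of 12.8 CPM. Tmem72 was far above its group in cerebellar medium 8, at 2.003 CPM against a median of 0.219 CPM.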

How the results depend on the processing

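The counts of genes past the test in the 3 striatal and 3 cerebellar comparisons with sham stayed at 0 in every alternative run. The cerebellar trend gave 831 calls with DESeq2 and from 0 to 1635 with 1 library left out, and the regional contrast gave 5071 calls with sham libraries only, against 9030 with all. Of the 10 genes most like Ttr, 1 was shared with the Pearson list in the striatum and 1 in the cerebellum. For medium against sham, cerebellar Ttr turned to 1.32 with DESeq2, 0.51 with limma-voom, 1.38 with the run of animal numbers, 0.57 without libraries set apart and between -0.87 and 1.89 with 1 library left out. For low against sham it ran from -0.15 to 3.71 with 1 library left out. For high against sham, Kl ran from -0.22 to 0.43 with 1 library left out, and Clic6 turned to 0.060 with limma-voom and 0.086 without libraries set apart. In the regional contrast Ttr turned to -0.051 without animal 17. Slc4a5 turned to -0.71 with the animal as a replicate block, -0.57 with DESeq2, -0.54 without animal 17 and -0.89 without the 2 libraries of each region with the most Ttr. Kl turned to -0.85, -0.95, -0.98 and -1.23 in the same alternatives. Clic6 and Kcne2 turned to 1.47 and 1.09 with sham libraries only. Under the replicate block 6 of the 10 genes passed. It changed the calls of Ttr, Kl, Mfrp and Tmem72 and no other. The cause of these shifts was not tested. Depth limits Cldn2, Tmem72, Slc16a8, Folr1 and Mfrp, which had under 10 reads in most cerebellar libraries.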
